A study of Oryza sativa with 8 samples.

Results

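The expansin genes of rice were followed in leaves and young panicles of plants that overexpress Ghd7 and of the wild type. A gene was taken as an expansin where its symbol or a synonym was EXPA, EXPB, EXLA or EXLB followed by a number, with or without a leading Os. Of the 49 such genes in the gene table, 29 had a probe set that the platform annotation pairs with that gene alone, out of 17905 genes measured in this way. They were 14 of 29 alpha-expansins (EXPA), 11 of 15 beta-expansins (EXPB) and 4 of 4 expansin-like A genes (EXLA), whereas the 1 expansin-like B gene (EXLB) was not measured. The 29 genes had 33 probe sets, and each gene was read from the probe set with the highest mean over all arrays.

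Expansins are secreted proteins that let the plant cell wall yield to turgor at acid pH without cutting its polymers. Alpha-expansins act on the walls of most flowering plants, and beta-expansins are numerous in grasses, where the group includes the major pollen allergens. Expansin-like proteins carry the same domains, but no wall-loosening activity has been shown for them. Expansins are found where cells enlarge, as in roots, coleoptiles, internodes, young leaves and floral organs.

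The arrays were Affymetrix rice arrays with 4 groups of 2 biological replicates. The overexpressor, OX-Ghd7HJ19, carries a Ghd7 transgene in the Hejiang19 cultivar, and Hejiang19 is the wild type. Ghd7 is a CCT-domain regulator that delays heading and increases plant height and grain number. Panicles of 0.1 cm and young leaves of 35-day-old plants were taken from both genotypes in the field at 3 hours after dawn. The promoter of the transgene, the number of transgenic lines and the number of plants per sample are not given in the sources used here. Ghd7 was not analysed here, because no probe set is paired with it, so the level of the transgene could not check the genotype labels.

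Of 5 marker genes of green tissue, all were at percentile 99.8 or above in leaves of both genotypes, where a percentile is the share of the tested probe sets of the same array that had a lower value. Of 5 meristem markers, 4 lay below the array median in leaves, and all 5 lay between percentiles 73.1 and 99.2 in panicles. The exception in leaves was LOG, which activates cytokinin. Each marker was read from its brightest probe set. The dimmest OsrbcS probe set was at percentiles 40.4 in OX leaves and 41.8 in WT leaves, and its others were at 97.9 or above. A dimmer LOG probe set was at 32.7 in OX leaves and 32.2 in WT leaves. In panicles that LOG probe set was at 14.9 in OX and 13.0 in WT. Array medians were 6.13 to 6.15 in panicles and 4.49 to 4.53 in leaves, so the arrays of the tissues do not share a scale. Tissues were therefore set side by side by percentile, without a test, and genotypes were tested within a tissue.

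More expansins ranked higher in panicles than in leaves than the reverse, and the counts were uneven among the subfamilies. Of the 29 genes, 13 had a higher percentile on all 4 panicle arrays than on all 4 leaf arrays (44.8%), against 50.4% of all genes measured. A lower percentile on all panicle arrays was found for 10 expansins (34.5%), against 34.7% of all genes, and the tissues overlapped for the other 6. The panicle ranked higher for 9 of 14 alpha-expansins, 4 of 11 beta-expansins and 0 of 4 expansin-like A genes. The leaf ranked higher for 3 alpha-expansins, 3 beta-expansins and all 4 expansin-like A genes. The shares for the family as a whole thus lay near those of all genes. The counts by subfamily include genes below the array median in both WT tissues, where a value may be mostly background. These were OsEXPA8 and OsEXPA32 on the panicle side, and OsEXPA4, OsEXPA31 and OsEXPB18 on the leaf side. In wild type the median percentile of the 29 genes was 63.8 in panicles and 44.6 in leaves, below the medians of 78.0 and 76.5 over all genes.

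OsEXPA5, OsEXPB4 and OsEXPA7 had the highest percentiles of the family in panicles of both genotypes. OsEXPA7 was at percentiles 97.5 in OX panicles and 97.0 in WT panicles, against 23.1 in OX leaves and 23.6 in WT leaves. OsEXPB4, described from growing internodes of deepwater rice, was at 97.7 in OX panicles and 97.6 in WT panicles, against 43.6 in OX leaves and 35.8 in WT leaves. OsEXPA5 was at 98.3 in OX panicles and 97.8 in WT panicles, against 53.6 in OX leaves and 43.1 in WT leaves. All 3 genes were thus near the top of the panicle arrays, and their mean was below the array median in WT leaves. The probe set of OsEXPB4 is of a kind that can match more than 1 transcript.

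The wide tissue gap of OsEXPA7 rests on 1 of its 3 probe sets. The next brightest was at percentiles 57.0 in WT panicles and 58.3 in WT leaves. The dimmest was at 24.4 in WT panicles and 42.0 in WT leaves. OsEXPB17 likewise had 1 probe set at 90.2 in WT panicles and 53.1 in WT leaves, and a second at 50.7 in WT panicles and 43.6 in WT leaves. Both probe sets of OsEXLA2 lay higher in WT leaves, at 52.7 and 52.5 in WT panicles against 75.5 and 75.7 in WT leaves.

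Other genes of the panicle side were OsEXPA16, OsEXPA29, OsEXPA6 and OsEXPB7. OsEXPA16 was at percentile 85.0 in WT panicles and 30.6 in WT leaves. OsEXPA29 was at 87.5 in WT panicles and 39.6 in WT leaves. These genes were chosen for mention after their values were seen.

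**Figure D1:**
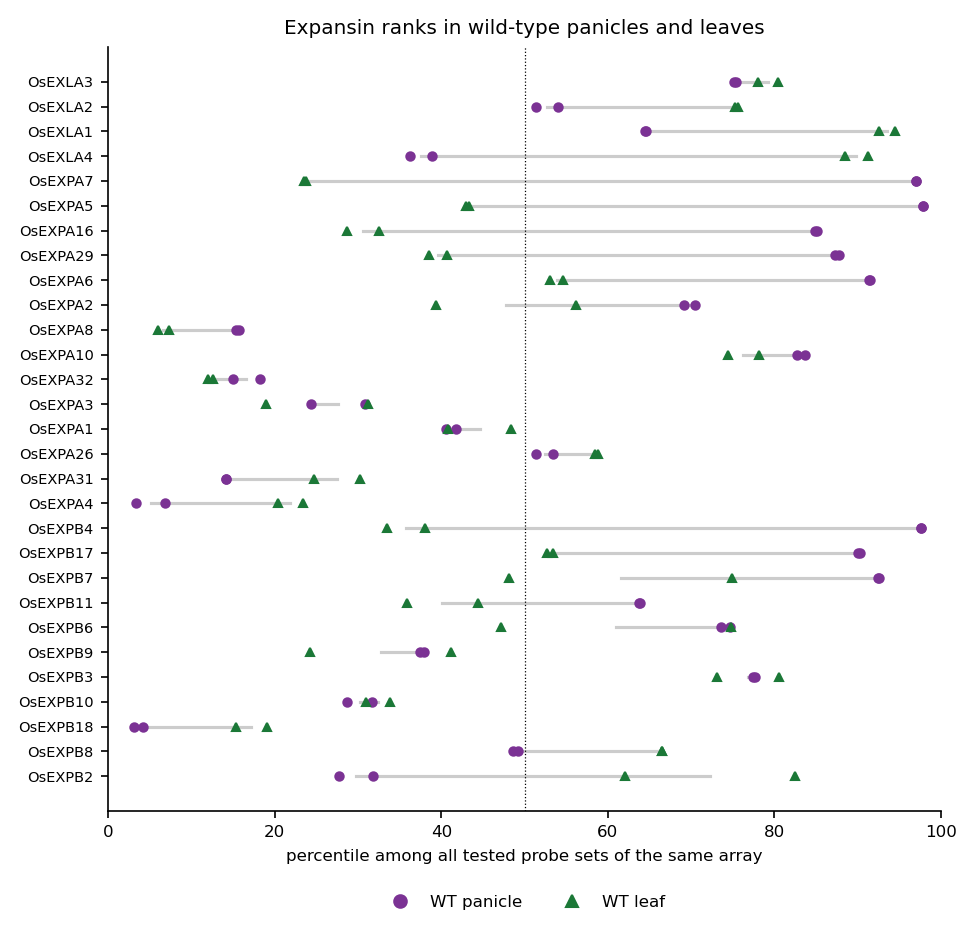
Percentile of each of the 29 expansins among all tested probe sets of an array, in WT panicles and WT leaves, with the genes grouped by subfamily. All 4 expansin-like A genes lie higher in leaves, whereas OsEXPA7, OsEXPB4 and OsEXPA5 lie at mean percentiles of 97.0 to 97.8 in WT panicles.

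The leaf side was led by the expansin-like A genes, as the plot of percentiles by tissue shows. OsEXLA4 was at percentiles 31.4 in OX panicles and 37.6 in WT panicles, against 87.7 in OX leaves and 89.8 in WT leaves. OsEXLA1 was at 65.5 in OX panicles and 64.6 in WT panicles, against 88.6 in OX leaves and 93.5 in WT leaves. OsEXLA3 differed least, at 75.2 in WT panicles and 79.2 in WT leaves. Among the beta-expansins OsEXPB2, described from roots, was at 29.8 in WT panicles and 72.3 in WT leaves. It is followed directly by OsEXPB3 and OsEXPB4 in the RefSeq gene order, with no coding gene between them. OsEXPB3 overlapped between tissues, at 77.5 in WT panicles and 76.8 in WT leaves, so these neighbours differed in tissue rank. In the other pair of measured neighbours, OsEXPB8 was at 48.9 in WT panicles and 66.5 in WT leaves, and OsEXPB7 was at 92.6 in WT panicles and 61.5 in WT leaves.

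Of the 29 expansins, 9 lay below the array median in both tissues of the wild type. 10 lay above it in both, 7 in panicles alone and 3 in leaves alone. For probe sets below the array median a value may be mostly background. OsEXPB10, a pollen-type beta-expansin, was among the low ones, at percentiles 30.2 in WT panicles and 32.4 in WT leaves. OsEXPA8, known from roots, was at 15.5 in WT panicles and 6.64 in WT leaves.

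In panicles, overexpression of Ghd7 went with a higher level of OsEXPB11 and a lower level of OsEXPA6. 1 expansin rose and 1 fell (6.90% of the 29) in a test at an adjusted p under 0.05, and 27 did not pass. Of all probe sets 2.89% passed, with 1.05% higher and 1.84% lower. The test was limma's, with 1 mean per group over 8 arrays and Benjamini-Hochberg adjustment over 57194 probe sets. Refitted with 1 probe set per gene, it called 3 of the 29 expansins and 726 of the 17905 genes. The median change of the 29 genes was 0.01 on the log2 scale, beside 0.02 over all probe sets. OX values lay above both WT values for 10 expansins, against 30.1% of all genes, and below both for 8, against 31.3%.

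OsEXPB11, a beta-expansin also described from growing internodes of deepwater rice, had log2 levels of 9.43 and 9.13 in OX panicles, against 7.59 and 7.60 in WT panicles. Both OX arrays lay more than a log2 unit above both WT arrays. The difference was 1.69 ± 0.17 (SE), which is 3.23-fold, with a limma adjusted p of 0.00128. The percentile was 75.7 in OX panicles and 63.8 in WT panicles. OsEXPB11 follows OsEXPB14 directly in the gene order, and OsEXPB14 was not measured. The call of OsEXPB11 held under all 16 alternatives tried, with adjusted p between 0.000278 and 0.0222.

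OsEXPA6, an alpha-expansin, had log2 levels of 10.62 and 10.32 in OX panicles, against 11.35 and 11.33 in WT panicles. Both OX arrays were lower, and the OX arrays differed from each other more than the WT arrays did. OsEXPA6 fell by 0.87 ± 0.13 (SE) on the log2 scale, which is 1.83-fold, with a limma adjusted p of 0.00862. The percentile was 84.9 in OX panicles and 91.4 in WT panicles. The call was lost in 4 of the 16 alternatives: the fit on panicle arrays alone, and the fits without OX panicle replicate 2 or either WT panicle array, where adjusted p reached 0.0896.

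The next expansin in panicles did not pass. OsEXPB8 had log2 levels of 5.62 and 5.28 in OX panicles, against 6.06 and 6.03 in WT panicles, below the array median in both. The groups did not overlap, and the difference was -0.60 ± 0.13 (SE) with a limma adjusted p of 0.0521. OsEXPB8 passed in 4 of 16 alternatives, and adjusted p lay between 0.0224 and 0.277 over the 16. It passed at 0.0296 without OX panicle replicate 1. OsEXPB17 had 10.80 and 10.66 in OX panicles, against 11.17 and 11.15 in WT panicles, a difference of -0.43 with an adjusted p of 0.216. OsEXPB6 averaged 9.55 ± 0.25 in OX panicles and 9.08 ± 0.11 in WT panicles (SD, n = 2 each), a difference of 0.48 with an adjusted p of 0.759. The 3 top-ranked genes OsEXPA5, OsEXPB4 and OsEXPA7 differed between genotypes by 0.20, 0.01 and 0.13 on the log2 scale, and none passed.

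The markers of other cell types also moved between the panicle groups, where 1.05% of all probe sets rose and 1.84% fell. All 6 floral organ markers fell. Their summed level was 11.3 to 11.4 in OX panicles and 13.6 in WT panicles. A summed level here is the log2 of the sum of linear values, in which the brightest genes weigh most. Of the 5 meristem markers 2 rose, with a summed level of 14.8 in OX panicles and 14.4 in WT panicles. Of the 5 green tissue markers 4 fell, with a summed level of 9.39 to 10.4 in OX panicles and 11.1 to 11.2 in WT panicles, and the germ cell marker MEL1 fell. None of the 28 dividing cell genes passed in limma. At an unadjusted p below 0.05, 5 of the 28 were lower and 0 higher, against 8732 of the 57194 probe sets in either direction. The summed level of the 28 was 16.6 to 16.7 in OX panicles and 16.8 in WT panicles. The part of these shifts in the expansin results was not tested, and in bulk tissue fewer cells of a type and less RNA per cell cannot be told apart.

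**Figure D2:**
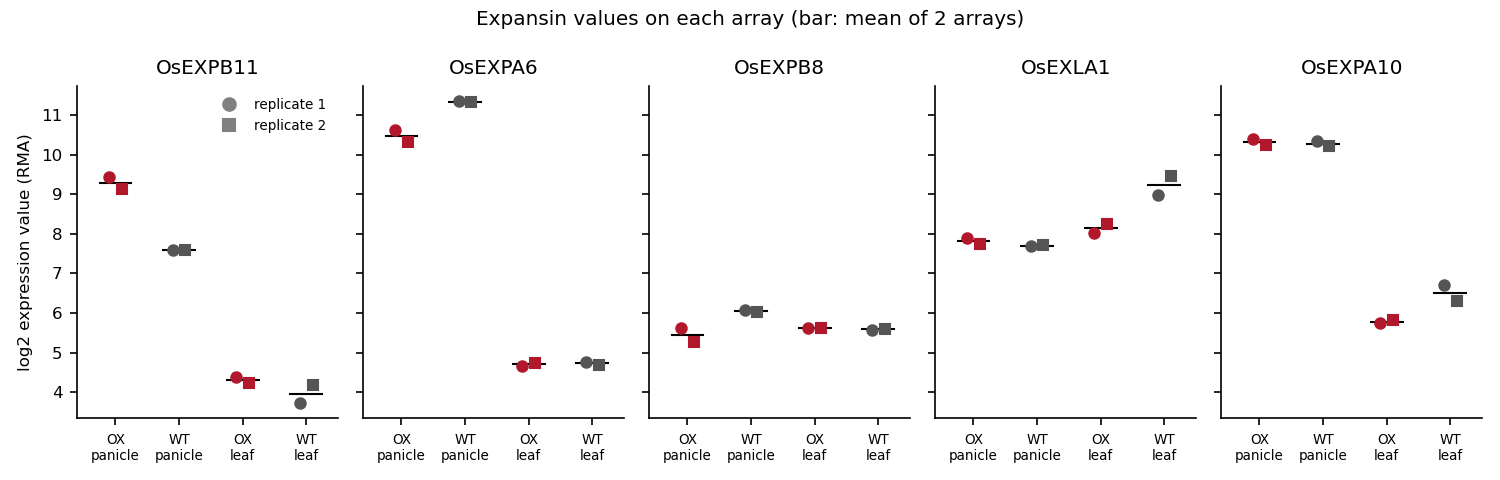
Log2 level of the 4 expansins that passed in a tissue, and of OsEXPB8, which lay just outside the threshold, on each array, with bars for the mean of 2 arrays. OsEXPB11 stands higher and OsEXPA6 lower in OX panicles, and OsEXLA1 and OsEXPA10 stand lower in OX leaves.

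In leaves, OsEXLA1 and OsEXPA10 were lower in the overexpressor. Of the 29 expansins 0 rose and 2 fell (6.90% of the 29), and 27 did not pass. Of all probe sets 4.42% passed, with 1.37% higher and 3.05% lower. Refitted with 1 probe set per gene, the test called 2 of the 29 and 2167 of the 17905 genes, a higher share than among the expansins. At an unadjusted p under 0.05 in limma, 2 were higher and 4 were lower, against 9638 of the 57194 probe sets in either direction. The median change was 0.05 on the log2 scale, beside 0.03 over all probe sets. OX values lay above both WT values for 6 expansins, against 20.7% of all genes, and below both for 4, against 27.5%.

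OsEXLA1, the expansin with the highest leaf percentile, had log2 levels of 8.03 and 8.25 in OX leaves, against 8.98 and 9.46 in WT leaves. The groups did not overlap, and the WT arrays differed from each other by 0.48. OsEXLA1 fell by 1.08 ± 0.17 (SE), which is 2.12-fold, with a limma adjusted p of 0.00752. The call was lost in the fit on leaf arrays alone, with an adjusted p of 0.106, and without OX leaf replicate 1, with an adjusted p of 0.0652.

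OsEXPA10, an alpha-expansin known from roots, where aluminium induces it, had log2 levels of 5.75 and 5.82 in OX leaves, against 6.72 and 6.30 in WT leaves. The groups did not overlap. OsEXPA10 fell by 0.72 ± 0.15 (SE), which is 1.65-fold, with a limma adjusted p of 0.0309. The call was lost in 9 of 16 alternatives: the fit on leaf arrays alone, the replicate block, and the fits without any 1 array other than WT leaf replicate 2. The adjusted p reached 0.179.

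The other 2 of the 4 expansin-like A genes with a negative leaf value did not pass. OsEXLA4 had log2 levels of 8.10 and 7.90 in OX leaves, against 8.68 and 8.19 in WT leaves, a difference of -0.44 with an adjusted p of 0.265. OsEXLA3 differed by -0.09 and OsEXLA2 by 0.31, so the subfamily had 3 negative values and 1 positive one. Among the beta-expansins 9 of 11 leaf differences were positive, with a median of 0.17 and 0 called, and 1 had an unadjusted p under 0.05 in limma. Of the 28 dividing cell genes 2 rose in leaves (7.14%) and 0 fell, against 4.42% of all probe sets called in either direction. At an unadjusted p under 0.05 in limma, 4 of the 28 were higher and 4 lower, against 9638 of the 57194 probe sets in either direction. The summed level of the 28 was 10.5 in OX leaves and 10.3 to 10.4 in WT leaves. Of the 5 green tissue markers 0 passed in limma and 0 had an unadjusted p under 0.05, with a summed level of 16.0 in OX leaves and 16.1 in WT leaves. Their part in the leaf results was not tested.

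**Figure D3:**
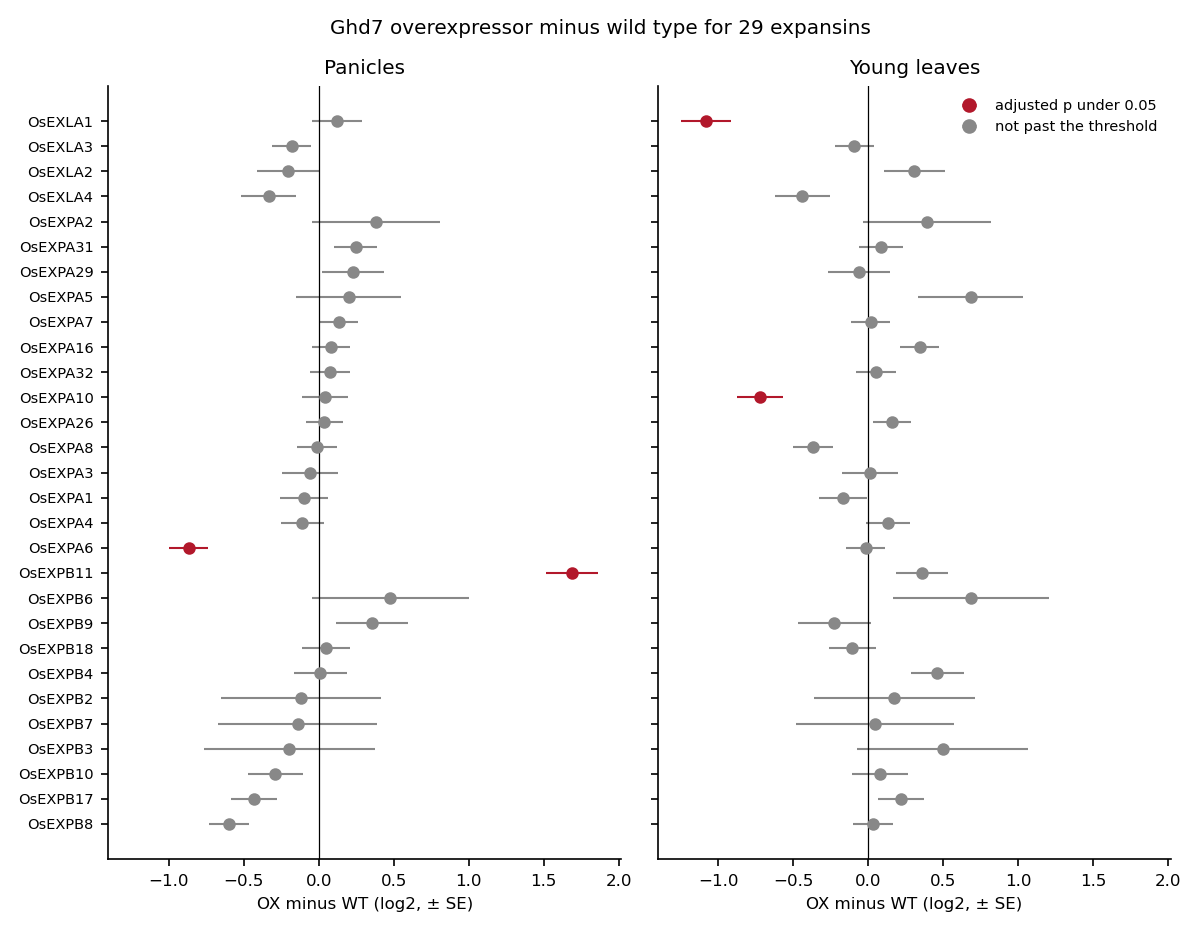
Log2 change (OX minus WT) of each of the 29 expansins in panicles and in leaves, with bars for the standard error and red points for genes that passed. OsEXPB11 at 1.69 and OsEXPA6 at -0.87 stand out in panicles, and OsEXLA1 at -1.08 and OsEXPA10 at -0.72 in leaves.

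The genotype effect differed between the tissues for 3 of the 29 expansins (10.3%), against 3.84% of all probe sets, in a limma test of the panicle effect minus the leaf effect. The panicle effect was the more positive for 2 of them, against 2.1% of all probe sets, and the more negative for 1, against 1.74%. Refitted with 1 probe set per gene, the test called 3 of the 29 and 1623 of the 17905 genes. On that basis the share of the expansins lay near that of all genes. OsEXPB11 was 1.69 higher in OX panicles and had 4.39 and 4.23 in OX leaves, against 3.72 and 4.18 in WT leaves, which lie below the array median. Its effects differed by 1.33 ± 0.24 (SE), with an adjusted p of 0.0196. OsEXLA1 had 7.89 and 7.75 in OX panicles, against 7.69 and 7.71 in WT panicles, and its effects differed by 1.21 ± 0.24 with an adjusted p of 0.0258. OsEXPA6 had 4.67 and 4.74 in OX leaves, against 4.76 and 4.69 in WT leaves, and its effects differed by -0.85 ± 0.18 with an adjusted p of 0.0378. These calls were lost in 7 of 15 alternatives for OsEXPB11, in 6 for OsEXLA1 and in 8 for OsEXPA6, and 0 expansins were called without OX leaf replicate 1 or without either WT panicle array. OsEXPA10 did not pass, with log2 levels of 10.39 and 10.25 in OX panicles, against 10.34 and 10.22 in WT panicles, and effects that differed by 0.77 ± 0.21 with an adjusted p of 0.0962. No expansin was called in both tissues. Across the 29 genes, which are not independent replicates, the panicle and leaf changes had a Pearson r of 0.186, and 15 had the same sign in both.

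The leaf replicates of several beta-expansins differed from each other by more than the genotypes did. In OX leaves 8 of 29 expansins (27.6%), and in WT leaves 6 of 29 (20.7%), had an SD above the 95th percentile of all probe sets, which was 0.347 in OX leaves and 0.426 in WT leaves. In panicles this held for 3 in OX and 0 in WT. Spread of this size widened the standard errors of these genes, in panicles as well, because the fit takes 1 spread per probe set.

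OsEXPB6 had log2 levels of 6.36 and 5.67 in OX leaves, against 4.33 and 6.34 in WT leaves. OsEXPB2 had 6.89 and 5.98 in OX leaves, against 5.26 and 7.27 in WT leaves. OsEXPB7 had 5.88 and 4.95 in OX leaves, against 4.38 and 6.36 in WT leaves. In these 3 genes WT replicate 1 was the lowest leaf array, and the WT arrays stood on both sides of OX replicate 2. OsEXPB3 had 8.16 and 6.00 in OX leaves, against 6.16 and 7.01 in WT leaves, and OsEXPA2, described from coleoptiles and internodes, had 5.48 and 4.08 in OX leaves, against 3.90 and 4.88 in WT leaves. In all 5 genes OX replicate 1 exceeded OX replicate 2, and WT replicate 2 exceeded WT replicate 1, each by over 0.5 on the log2 scale. The same was true of 64 of the 17905 genes (0.357%), of 5 of the 29 expansins (17.2%) and of 0 of the 28 dividing cell genes. With differences over 0.5 in both genotypes counted in any direction, the numbers were 261 of the 17905 genes (1.46%) and again 5 of the 29 expansins. The pattern and its direction were chosen after the values were seen, so the counts are a description.

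OsEXPB6, OsEXPB2 and OsEXPB3 follow each other in the gene order with no coding gene between them, and OsEXPB7 lies beside OsEXPB8. OsEXPB8 had 5.62 and 5.61 in OX leaves, against 5.58 and 5.59 in WT leaves, and so did not share the spread of its neighbour. OsEXPB4, the next in the first row of neighbours, had 4.46 and 3.92 in OX leaves, against 3.60 and 3.85 in WT leaves, and its groups did not overlap. Its difference of 0.46 had an adjusted p of 0.226.

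OsEXPB6 had the largest leaf difference among the expansins that did not pass, at 0.69 ± 0.52 (SE) with an adjusted p of 0.578. OsEXPA5 had 5.47 and 4.10 in OX leaves, against 4.11 and 4.10 in WT leaves, a difference of 0.68 ± 0.35 with an adjusted p of 0.373, in which 3 arrays were alike and 1 was higher. The difference of OsEXPB3 was 0.50 ± 0.57, with an adjusted p of 0.744. Leaving out 1 leaf array turned the sign of all 3: without OX leaf replicate 1 the difference was -0.00400 for OsEXPA5 and -0.58 for OsEXPB3, and without WT leaf replicate 1 it was -0.32 for OsEXPB6. Without WT leaf replicate 2 OsEXPB6 passed, at 1.69, and without OX leaf replicate 2 OsEXPA5 passed, at 1.37.

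**Figure D4:**
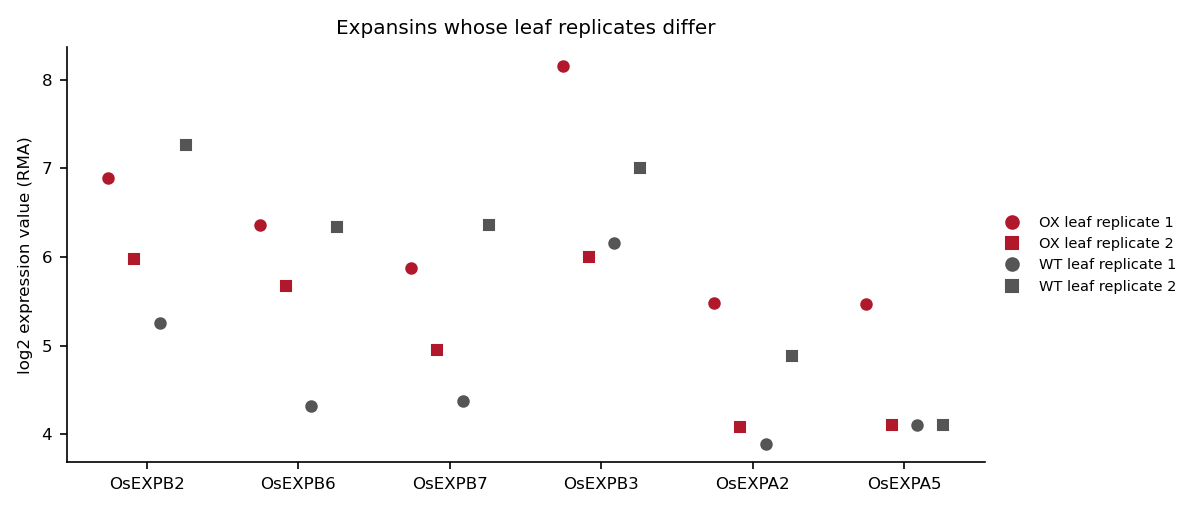
Log2 level of expansins whose leaf replicates differ, on each leaf array, OX beside WT. OX replicate 1 lies above OX replicate 2 for all 6 genes drawn, and WT replicate 2 lies above WT replicate 1 for all but OsEXPA5.

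The other wall genes with a symbol of the cellulose synthase, cellulose-synthase-like, xyloglucan endotransglucosylase and pectin enzyme families gave 32 measured genes for comparison. In panicles 0 rose, 1 fell (3.13%) and 31 did not pass, against 2.89% of all probe sets called and 1.84% fallen, so the share lay near that of all probe sets. Refitted with 1 probe set per gene, the test called 1 of the 32 and 726 of the 17905 genes. The median change was 0.00386, and 3 had an unadjusted p under 0.05 in limma, against 8732 of the 57194 probe sets. CSLD4, a cellulose-synthase-like gene that is needed for normal leaf width and plant height in rice, had log2 levels of 9.03 and 8.48 in OX panicles, against 9.60 and 9.69 in WT panicles. CSLD4 fell by 0.89 ± 0.17 (SE), with a limma adjusted p of 0.0306, and passed in 7 of 16 alternatives. The call was lost in the fit on panicle arrays alone, with the replicate block and without any 1 array other than OX panicle replicate 1, with adjusted p up to 0.232. Its probe set can cross-hybridise, by its suffix.

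In leaves 0 of the 32 passed in limma, against 4.42% of all probe sets. Refitted with 1 probe set per gene, the test again called 0 of the 32, and 2167 of the 17905 genes. Of the 32 genes 6 had an unadjusted p under 0.05 in limma, against 9638 of the 57194 probe sets, and the median change was -0.08. CSLH1, a cellulose-synthase-like gene, passed without either WT leaf array, and CESA1 and CESA8 passed without OX leaf replicate 1. A second probe set of CESA1, a cellulose synthase, fell by 0.91 ± 0.16 (SE) in leaves with an adjusted p of 0.0139, whereas the brighter one differed by -0.58 with an adjusted p of 0.242. By percentile, 26 of the 32 genes (81.3%) ranked higher in panicles on all arrays and 5 (15.6%) ranked higher in leaves, against 50.4% and 34.7% of all genes. For the 29 expansins these counts were 13 and 10, and the difference between the lists was not tested. One of the 32, PGL1, entered by its symbol, which in rice names a helix-loop-helix factor of grain length.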

How the data were processed

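The deposited values are log2 expression values per probe set, made by the authors with RMA per the submitters' processing notes. The version and the way arrays were grouped for it are not given in the sources used here. The labels' description field names flag leaf at heading for every sample, and tissue and genotype were taken from the titles instead.

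Of 57381 probe sets, 187 controls were left out. The platform annotation pairs 22436 probe sets with 1 gene and 95 with several, which were not named. Names, synonyms and gene order came from a RefSeq gene table (assembly ASM3414082v1), and no coordinates are given.

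limma 3.58.1 in R 4.3.3 fitted 1 mean per group to all 8 arrays. Two-sided p-values had a Benjamini-Hochberg adjustment across the 57194 probe sets of each contrast, and "rose", "fell" and "passed" mean an adjusted p under 0.05. A change on the log2 scale is OX minus WT. The fitting code was tested on simulated data. Tables and plots were made in Python 3.11.15 with pandas 2.3.3 and, for plots, matplotlib 3.10.9.

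The members, lists and tests were chosen with earlier results of these data known. Named genes were the called members, the 3 with the highest percentile per group, the 3 largest uncalled changes per tissue and, of other wall genes, up to 3 called per tissue. Others were named after their values were seen. The alternatives were quantile normalization again, equal medians, a fit per tissue, a trend with robust prior, array weights, a replicate block, a filter on dim probe sets, 1 probe set per gene and leaving out each array. For other wall genes they were added after the data were seen. With 2 arrays per group the number of arrays limits the precision. Samples were not treated as paired by replicate number in the main fit. Deviations of same-numbered arrays had correlations of 0.0574 in panicles and 0.0072 in leaves over all probe sets. These values cannot show whether the samples were collected in pairs.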

Additional observations from a re-analysis of the deposited data

Results flagged for a closer look

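The effect of the overexpressor differed between panicles and leaves for 3 of the 29 expansins (10.3%), by limma's test of the difference itself. Of all probe sets 3.84% were called. With 1 probe set per gene the test called 3 of the 29 and 1623 of the 17905 genes. On that basis the share of the expansins lay near that of all genes. The panicle effect minus the leaf effect was 1.33 for OsEXPB11 (adjusted p 0.0196), 1.21 for OsEXLA1 (adjusted p 0.0258) and -0.85 for OsEXPA6 (adjusted p 0.0378). OsEXPB11 and OsEXPA6 were called in panicles and OsEXLA1 in leaves. The leaf values of OsEXPB11 lay below the array median and may be mostly background, so the size of its leaf effect, and with it of the difference, is uncertain. The call for OsEXPB11 was lost in 7 of 15 alternatives: quantile normalization again, the replicate block, and leaving out either OX leaf array, either WT panicle array or OX panicle replicate 1. That for OsEXLA1 was lost in 6 of 15, without either OX leaf array or any panicle array. That for OsEXPA6 was lost in 8 of 15, with the replicate block and without any 1 array other than OX panicle replicate 1. Adjusted p reached 0.0928 for OsEXPB11, 0.112 for OsEXLA1 and 0.150 for OsEXPA6.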

How the results depend on the processing

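Of the changes within a tissue, OsEXPB11 in panicles held its call under all alternatives. On the 4 arrays of a tissue alone, 1 expansin was called in panicles and 0 in leaves, with 692 and 325 probe sets called in all, against 1652 and 2529 on all arrays. With the replicate block, 1 expansin was called in leaves and 1 for the difference of the effects, and 1097 probe sets were called in panicles and 1467 for the difference. 0 other wall genes were called in panicles under either. Leaving out 1 array gave 1 to 3 expansins in panicles, 0 to 3 in leaves and 0 to 3 for the difference, and 0 to 1 other wall genes in panicles and 0 to 2 in leaves. Over all probe sets it gave 420 to 1645 calls in panicles, 1051 to 3292 in leaves and 630 to 2670 for the difference. Array weights gave 2807 calls in panicles among 57194 probe sets, and 1 probe set per gene gave 726 among 17905 genes. In leaves the sign turned for OsEXPB6 (-0.32 without WT leaf replicate 1), OsEXPA5 (-0.00400 without OX leaf replicate 1) and OsEXPB3 (-0.58 without OX leaf replicate 1), and without the other replicate of the same group the values were 1.69, 1.37 and 1.57. The cause of these differences was not tested, and some of the alternatives also had fewer arrays or genes. Probe sets below the array median limit what can be said of the 9 expansins that were low in both tissues, and 20 expansins were not measured.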
